A study of Mus musculus with 12 samples.

Results

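Integrins are surface receptors made of one alpha and one beta chain that bind the extracellular matrix, and focal adhesion adaptors are the proteins that tie their short cytoplasmic tails to actin. The 39 genes described here were chosen by symbol, as a list of integrin chains and of the proteins that activate, signal from or anchor them, with the matrix ligand fibronectin added. All 39 were found once among the 34174 genes of the deposited table. They comprise 12 alpha chains, 6 beta chains, 4 talin and kindlin genes, 4 signalling adaptors, 5 genes of the ILK complex, 7 actin linkers and tensins, and Fn1. RNA came from mouse cardiac stem cell cultures, which are C57BL/6 heart cells expanded on gelatin-coated dishes in serum-containing medium. Cultures labelled c-kitCre, from mice with the Cre recombinase gene knocked into Kit, are set against cultures labelled wild-type. Each group has 3 numbered cultures with 2 libraries per culture, and the table holds 1 value per culture and gene, so n = 3 throughout. The labels do not say whether cultures came from separate animals, so p-values measure the spread between these cultures. Age and sex of the mice are not in the labels used here.

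In adherent cells an alpha chain mainly sets which ligand is bound, and the beta tail recruits talin and kindlin, which switch the receptor on. FAK, p130Cas and paxillin then pass signals inwards, the ILK, PINCH and parvin complex stabilises the link, and vinculin, tensins, alpha-actinins and filamins carry it to actin. Most matrix receptors of heart mesenchymal cells contain the beta1 chain, while alphav pairs with several beta chains and beta7 is best known from lymphocytes.

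Levels are given as scaled reads, which are raw values multiplied by the factor per culture that the authors' normalization used. Each culture summed to between 22371439 and 35963488 in raw values. Kit, the receptor gene that carries Cre, stood at 1732, 1738 and 1603 scaled reads in cultures labelled c-kitCre and at 3.38, 1.55 and 1.17 in those labelled wild-type. Kit RNA was thus nearly absent from the cultures labelled wild-type, the group without the knock-in. The reason was not tested, and every direction below rests on the labels as given. Ptprc, the pan-leukocyte antigen gene, averaged 1.70 ± 0.67 scaled reads in cultures labelled c-kitCre and 1.31 ± 0.42 in those labelled wild-type (SD, n = 3 each). Of the fibroblast markers, 10 of the 11 tested were higher in the cultures labelled c-kitCre, where 16.2% of all genes tested were higher. The listed fibroblast markers summed to between 166703 and 236351 scaled reads per culture labelled c-kitCre, against 32820.4 to 36587 in those labelled wild-type. The collagen genes Col1a1, Col1a2 and Col3a1 made up most of these sums. They averaged 42411, 78574 and 48136 in the cultures labelled c-kitCre and 6766, 3318 and 22537 in those labelled wild-type. In bulk RNA, fewer cells of a type and less RNA per cell cannot be told apart.

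The mix of integrin chains differed between the groups. In the cultures labelled c-kitCre, Itgb1, Itga8, Itga9, the kindlin gene Fermt2, Lims1 and Fn1 were higher, and Itgb7, Itgb8, Itgb5, Itga3, Itga10, the FAK gene Ptk2, Tns1 and Tns3 were lower. These 14 members, 6 higher and 8 lower, passed an adjusted p of 0.05 in limma, fitted over 24151 genes. That is 35.9% of the members, against 35.5% of all genes tested, so the share called was near the background. In the higher direction the background was 16.2% and in the lower direction 19.3%. The median log2 difference of the members was 0.09, against 0.04 over all genes, and the median size of the difference was 0.61, against 0.60. At least 2-fold differences were found in 5 of the higher and 7 of the lower members, where 25.8% of all genes passed with such a difference. The split depends on the scaling. Median centring over all genes tested moved the median log2 difference of all genes to -0.31 and gave 5 higher and 11 lower members. Fermt1, which lies near or under the floor, was among the lower. Of all 24151 genes, 2821 were then higher and 8605 lower. Centring over genes averaging 50 or more scaled reads moved the median to 0.26 and gave 10 higher and 7 lower members. With it, 5488 of all genes were higher and 3794 lower. None of the 14 changed direction under any of the 18 alternatives.

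**Figure D1:**
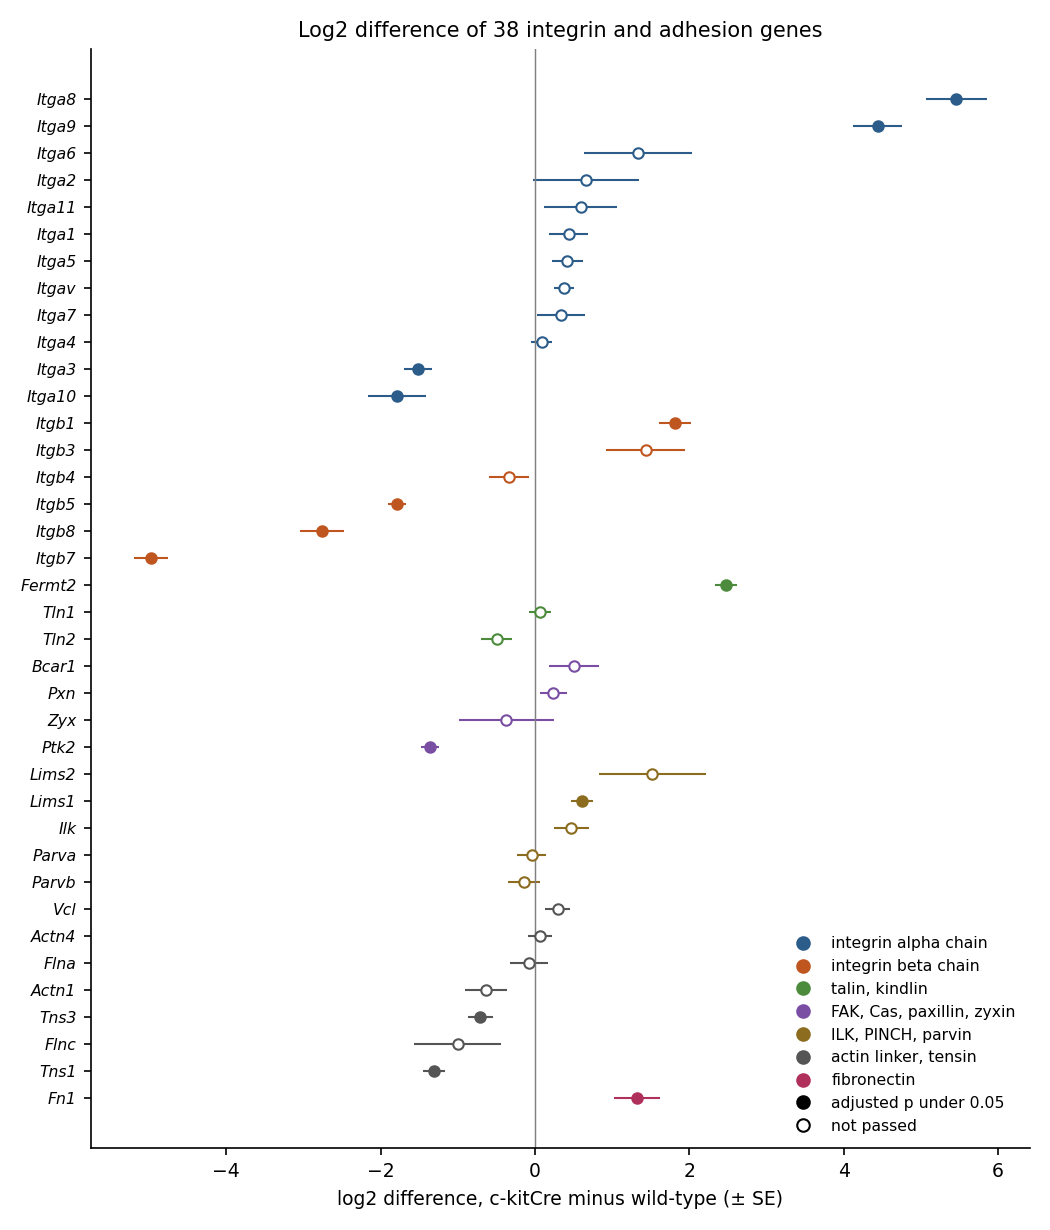
Log2 difference, c-kitCre minus wild-type, with its standard error for 38 members grouped by role, with filled points for an adjusted p under 0.05 (limma, n = 3 cultures per group). The alpha chains spread from -1.79 (Itga10) to 5.46 (Itga8), the beta chains from -4.98 (Itgb7) to 1.82 (Itgb1), and Fermt1 is left out because both groups were near or under the floor.

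Start regions are shown for the 2 genes with the largest rises and the 2 with the largest falls. They were taken from the called members with a matching window. Itga9, with a log2 difference of 4.44 above the 2.48 of Fermt2, had no matching window. Windows span 250 bases before to 50 bases after the RefSeq start on GRCm38.p6, and 29 members had one, of which 27 lay within 1000 bases of the GENCODE gene start. Capitals mark matches to the Sp1 box GGGCGG on either strand, which were found in Fermt2 only.
Itga8 (chr2:12301895-12302194, minus strand): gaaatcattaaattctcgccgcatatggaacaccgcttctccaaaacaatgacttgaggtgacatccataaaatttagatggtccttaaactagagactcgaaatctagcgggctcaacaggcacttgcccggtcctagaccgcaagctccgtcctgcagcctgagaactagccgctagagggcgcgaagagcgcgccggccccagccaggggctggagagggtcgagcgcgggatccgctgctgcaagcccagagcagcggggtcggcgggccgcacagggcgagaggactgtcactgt
Fermt2 (chr14:45530016-45530315, minus strand): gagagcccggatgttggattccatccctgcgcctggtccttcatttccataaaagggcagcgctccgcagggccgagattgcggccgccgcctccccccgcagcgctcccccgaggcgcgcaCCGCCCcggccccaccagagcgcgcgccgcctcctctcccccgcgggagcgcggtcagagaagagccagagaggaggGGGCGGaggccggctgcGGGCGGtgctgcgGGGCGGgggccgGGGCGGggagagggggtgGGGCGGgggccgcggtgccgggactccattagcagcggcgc
Itgb7 (chr15:102231886-102232185, minus strand): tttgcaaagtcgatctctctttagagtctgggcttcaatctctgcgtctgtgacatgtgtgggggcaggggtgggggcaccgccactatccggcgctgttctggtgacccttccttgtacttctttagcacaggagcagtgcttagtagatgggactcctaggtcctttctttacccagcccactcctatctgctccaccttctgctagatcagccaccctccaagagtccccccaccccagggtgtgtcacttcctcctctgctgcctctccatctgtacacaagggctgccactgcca
Itgb8 (chr12:119238227-119238526, minus strand): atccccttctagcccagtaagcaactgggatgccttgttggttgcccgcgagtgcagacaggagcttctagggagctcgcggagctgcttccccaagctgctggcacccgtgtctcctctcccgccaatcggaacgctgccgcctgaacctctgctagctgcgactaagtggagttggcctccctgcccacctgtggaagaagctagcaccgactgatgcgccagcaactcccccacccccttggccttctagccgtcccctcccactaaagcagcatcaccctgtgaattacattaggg
The Fermt2 window held 6 matches to GGGCGG, none overlapping another. The other letters searched, also on either strand, were absent from all 4 windows. For AP-1 these were TGANTCA, which stood in 7.81% of all 32851 windows. The Ets letters CCGGAA were found in 14.9% of them and the TEAD letters GGAATG in 14.7%. Runx letters (TGTGGT) occurred in 16.8%, and the core promoter box TATAAA was held by 13.6%. Gata factor letters, AGATAA, were present in 11.2%, and the E-box CACGTG in 7.15%. GGGCGG stood in 3 of the 4 windows of higher members and 4 of the 7 of lower members. Over all 27 members with a window near the gene start, called or not, it stood in 19, against 35.7% of all 32851 windows. Each member gave only the window nearest its GENCODE gene start, a choice not made for all 32851 windows, so the sets are unlike. A match is a run of letters and not a bound site.

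Among the beta chains, Itgb1, the partner of most matrix-binding alpha chains, had the highest level per kb of exon in both groups. Itgb1 (ENSMUSG00000025809, mm10 chromosome 8, 128685654 to 128733200, plus strand) stood at 42172, 45335 and 37411 scaled reads in cultures labelled c-kitCre and at 14882, 10675 and 10223 in those labelled wild-type. The groups did not overlap, with wild-type culture 1 the highest of its group. The log2 difference was 1.82 ± 0.21 (SE; limma, adjusted p = 0.00131), a 3.53-fold rise. Non-overlapping groups were found for 18 members, 9 above and 9 below, where 53.2% of all genes tested had them (26.1% above and 27% below).

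Itgb7, which forms the lymphocyte receptors alpha4beta7 and alphaEbeta7, moved furthest down. Itgb7 (ENSMUSG00000001281, chromosome 15, 102215995 to 102231944, minus strand) measured 167, 146 and 133 scaled reads in cultures labelled c-kitCre, against 6368, 4016 and 3924 in those labelled wild-type. The groups lay far apart, and wild-type culture 1 was the highest of all. The log2 difference was -4.98 ± 0.22 (SE; limma, adjusted p = 7.32e-05). The alpha partners of beta7 did not pass. Itga4 averaged 817 ± 53.2 and 772 ± 97.0 scaled reads in cultures labelled c-kitCre and wild-type (SD, n = 3; log2 difference 0.09, 95% interval -0.25 to 0.42). Itgae averaged 20.2 ± 1.68 and 25.4 ± 7.49 in the cultures labelled c-kitCre and wild-type (SD, n = 3). Of 12 leukocyte and platelet markers tested, 2 were lower and 1 higher, or 25% called against 35.5% of all genes. Cd14, a monocyte receptor gene, averaged 129 ± 44.0 and 887 ± 415 scaled reads, and Fcer1g, an Fc receptor chain gene, 3.20 ± 2.11 and 15.6 ± 5.59, in cultures labelled c-kitCre and wild-type (SD, n = 3; limma, adjusted p = 0.00335 and 0.00587). Csf1r, the macrophage growth factor receptor gene, averaged 141 ± 22.9 and 30.8 ± 7.55 in the cultures labelled c-kitCre and wild-type (adjusted p = 0.00255). Itgb2, the leukocyte beta chain gene, averaged 49.7 ± 15.8 and 178 ± 180 in the cultures labelled c-kitCre and wild-type and did not pass (adjusted p = 0.172), and Ptprc was below the floor of 4.41 scaled reads in every culture. The part of leukocytes in the Itgb7 difference was not tested.

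Itgb5 and Itgb8 encode partners of alphav, in receptors for vitronectin and for latent TGF-beta. Itgb5 (ENSMUSG00000022817, chromosome 16, 33829665 to 33949338, plus strand) stood at 1436, 1370 and 1343 scaled reads in cultures labelled c-kitCre and at 4252, 5196 and 4936 in those labelled wild-type. Itgb8 (ENSMUSG00000025321, chromosome 12, 119158022 to 119238802, minus strand) stood at 116, 74.6 and 156 in the cultures labelled c-kitCre and at 733, 730 and 788 in those labelled wild-type. Both genes had separate groups. Itgb5 fell by 1.79 ± 0.12 on the log2 scale (adjusted p = 0.000206) and Itgb8 by 2.76 ± 0.29 (adjusted p = 0.00092; SE, limma). Their shared partner Itgav measured 10211, 10588 and 9127 scaled reads in cultures labelled c-kitCre and 8306, 7032 and 7709 in those labelled wild-type. Its log2 difference of 0.38 did not pass (limma, adjusted p = 0.0716; 95% interval 0.05 to 0.70), although the groups did not overlap.

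The other beta chains did not pass. Itgb3, the beta chain of the platelet fibrinogen receptor and of alphavbeta3, stood at 460, 348 and 260 scaled reads in cultures labelled c-kitCre and at 280, 88.0 and 85.3 in those labelled wild-type. Wild-type culture 1 lay inside the range of the cultures labelled c-kitCre, and the adjusted p was 0.0761 (limma). Itgb3 passed in 7 of the 18 alternatives. With all cultures these were the filter at a mean of 10, the 3 pseudocounts, centring over genes averaging 50 or more scaled reads and the block on culture number (adjusted p from 0.0282 to 0.0422), and the 7th left out wild-type culture 1 (0.00679). Itgb4, the laminin receptor chain of hemidesmosomes, averaged 111 ± 19.7 and 140 ± 23.8 scaled reads in cultures labelled c-kitCre and wild-type (SD, n = 3).

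Per kilobase of exon, which allows genes to be set side by side, Itgb1 took nearly the whole beta chain signal in the cultures labelled c-kitCre and shared it with Itgb7 and Itgb5 in those labelled wild-type. Itgb1 made up 95.0% ± 0.42 of the beta chain reads per kb in the cultures labelled c-kitCre and 47.6% ± 2.15 in those labelled wild-type (SD, n = 3). Itgb7 made up 0.50% ± 0.05 and 27.8% ± 3.25, and Itgb5 made up 3.64% ± 0.30 and 22.7% ± 5.42, in the cultures labelled c-kitCre and wild-type. A ratio within a culture carries no scale factor. The Itgb1 to Itgb7 ratio per kb was 172, 211 and 191 in the cultures labelled c-kitCre, against 1.59, 1.80 and 1.77 in those labelled wild-type. The Itgb1 to Itgb5 ratio was 25.6, 28.8 and 24.2 in the cultures labelled c-kitCre, against 3.05, 1.79 and 1.80 in those labelled wild-type. Summed beta chain reads per kb were 3.78, 3.47 and 3.78 times the summed alpha chain reads per kb in the cultures labelled c-kitCre and 2.26, 2.28 and 2.11 times in those labelled wild-type. Reads per kb use the merged exons of all GENCODE transcripts, so a gene with long rarely used exons reads low.

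**Figure D2:**
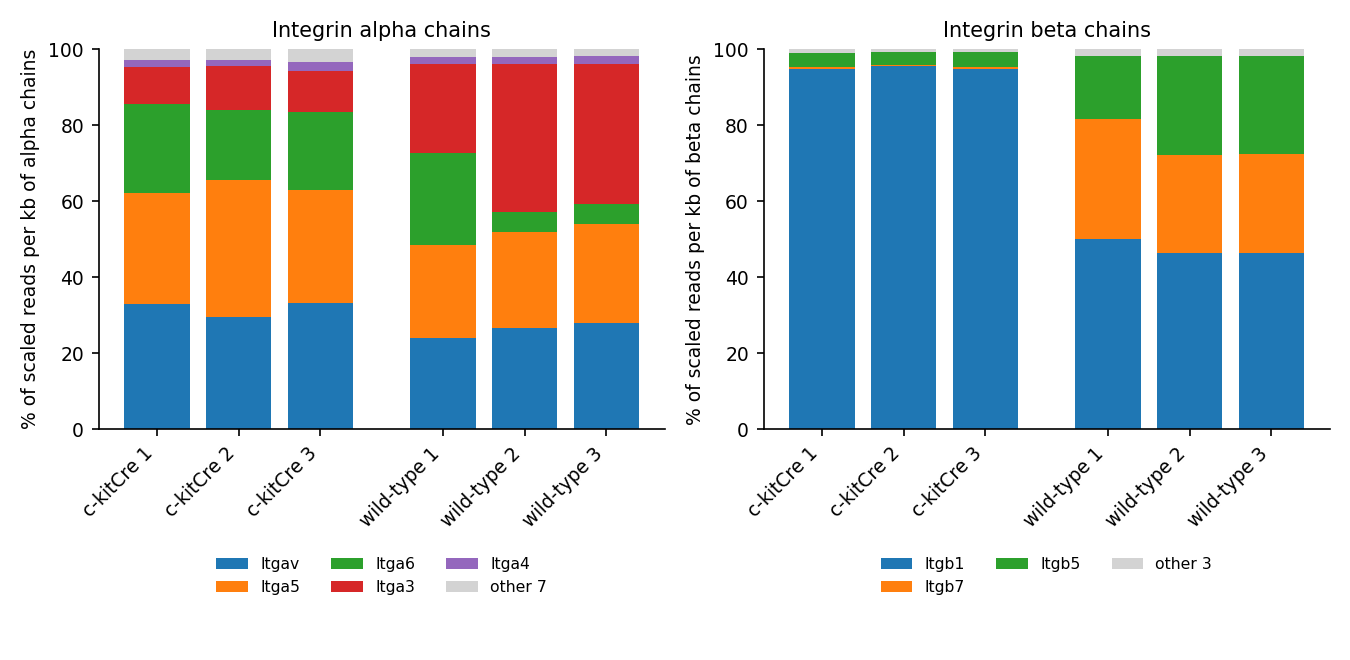
Share of each chain in the summed scaled reads per kb of the 12 alpha chains (left panel) and the 6 beta chains (right panel), 1 bar per culture. Itgb1 fills between 94.8% and 95.5% of the beta bars of the cultures labelled c-kitCre and between 46.3% and 50.1% of those labelled wild-type, and the Itga6 share of wild-type culture 1 (24.3%) differs from that of wild-type cultures 2 and 3.

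The alpha chains that rose were Itga8 and Itga9, which pair with beta1. Itga8, a receptor chain for nephronectin, fibronectin and tenascin-C found in mesenchymal cells, stood at 152, 336 and 151 scaled reads in cultures labelled c-kitCre, against 3.12, 2.04 and 4.82 in those labelled wild-type (ENSMUSG00000026768, chromosome 2, 12106632 to 12301922, minus strand). Itga9, a receptor chain for tenascin-C and osteopontin, stood at 144, 123 and 172 in the cultures labelled c-kitCre, against 6.47, 6.92 and 4.23 in those labelled wild-type (ENSMUSG00000039115, chromosome 9, 118606690 to 118901003, plus strand). Both genes were near the floor of 4.41 scaled reads in every culture labelled wild-type, so their log2 differences of 5.46 ± 0.40 and 4.44 ± 0.32 are limited by it (SE; limma, adjusted p = 0.000279 and 0.000257). Even where higher they were minor chains: Itga8 made up 0.96% ± 0.35 and Itga9 0.67% ± 0.20 of the alpha chain reads per kb in the cultures labelled c-kitCre (SD, n = 3).

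Itga3, the laminin-332 and laminin-511 receptor chain, and Itga10, a collagen receptor chain of cartilage, were lower. Itga3 (ENSMUSG00000001507, chromosome 11, 95044474 to 95076801, minus strand) stood at 1586, 2202 and 1553 scaled reads in cultures labelled c-kitCre and at 4298, 5450 and 5417 in those labelled wild-type. Its log2 difference was -1.52 ± 0.18 (SE; limma, adjusted p = 0.00164). Itga10 (ENSMUSG00000090210, chromosome 3, 96645584 to 96664519, plus strand) stood at 48.7, 26.3 and 56.6 in the cultures labelled c-kitCre and at 179, 132 and 127 in those labelled wild-type, with a log2 difference of -1.79 ± 0.38 (SE; limma, adjusted p = 0.0125). Both genes had separate groups. Itga10 is uncertain, because 33.5% of its exon bases overlap an annotated gene on the same strand, Gm42957, and without wild-type culture 2 its adjusted p was 0.0513.

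Itga5, the fibronectin receptor chain, did not pass, with 4175, 5963 and 3773 scaled reads in cultures labelled c-kitCre and 3857, 3080 and 3308 in those labelled wild-type. Its log2 difference of 0.42 had a 95% interval from -0.07 to 0.91 (limma, adjusted p = 0.159). By level per kb, the order of the alpha chains in the cultures labelled c-kitCre was Itga5, Itgav, Itga6 and Itga3, with means of 940 ± 236, 928 ± 70.6, 607 ± 75.8 and 312 ± 64.0 (SD, n = 3). Itga5 and Itgav did not differ beyond their spread there. In the cultures labelled wild-type the means were 885 ± 115 for Itga3, 715 ± 59.3 for Itgav, 692 ± 80.9 for Itga5 and 348 ± 375 for Itga6. In wild-type cultures 2 and 3 Itga3 was highest of the 4 (954 and 949) and Itga6 lowest (133 and 130). In wild-type culture 1 the 4 genes lay close together, with Itga3 lowest at 753, Itgav at 773, Itga6 at 781 and Itga5 at 782. The Itga5 to Itga3 ratio per kb was 3.05, 3.14 and 2.81 in the cultures labelled c-kitCre, against 1.04, 0.65 and 0.71 in those labelled wild-type.

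The remaining alpha chains were at low levels. Itga1, Itga2 and Itga11, which are collagen receptor chains, and Itga7, a laminin receptor chain of muscle, had means between 23.6 and 116 scaled reads in cultures labelled c-kitCre and between 15.5 and 89.4 in those labelled wild-type. None of them passed (limma, adjusted p from 0.229 for Itga1 to 0.49 for Itga2).

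Of the genes that activate integrins, Fermt2 rose and the talins did not pass. Fermt2 encodes kindlin-2, which binds beta tails beside talin. Fermt2 (ENSMUSG00000037712, chromosome 14, 45458795 to 45530118, minus strand) stood at 7271, 8306 and 6008 scaled reads in cultures labelled c-kitCre, against 1275, 1257 and 1313 in those labelled wild-type. Every culture labelled c-kitCre lay above every culture labelled wild-type, and the wild-type values lay close together. The log2 difference was 2.48 ± 0.14 (SE; limma, adjusted p = 0.000144), a 5.57-fold rise, and the Fermt2 rank among the 39 members by level per kb was 4 in the cultures labelled c-kitCre and 22 in those labelled wild-type.

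Tln1, the main talin of non-muscle cells, stood at 13324, 13846 and 11664 scaled reads in cultures labelled c-kitCre and at 11303, 12633 and 13120 in those labelled wild-type. The groups overlapped, and the log2 difference of 0.07 had a 95% interval from -0.28 to 0.42 (limma, adjusted p = 0.741). The Fermt2 to Tln1 ratio per kb was 1.03, 1.13 and 0.97 in the cultures labelled c-kitCre, against 0.21, 0.19 and 0.19 in those labelled wild-type. Tln2, the muscle and brain talin, averaged 1694 ± 390 and 2351 ± 218 scaled reads in cultures labelled c-kitCre and wild-type (SD, n = 3; limma, adjusted p = 0.104). Fermt1, the epithelial kindlin, averaged 2.34 ± 1.96 and 1.04 ± 0.52 in the cultures labelled c-kitCre and wild-type, near or under the floor in both groups, and no fold is given.

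**Figure D3:**
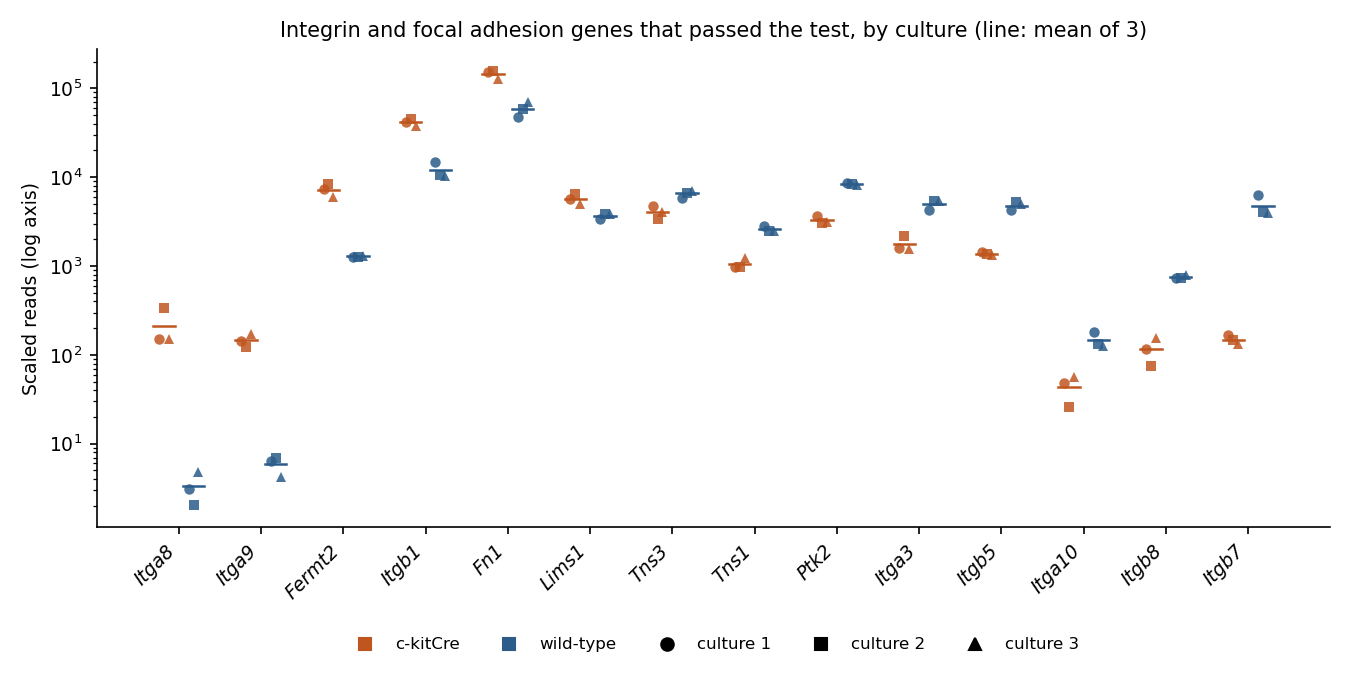
Scaled reads per culture on a log axis for the 14 members with an adjusted p under 0.05, ordered from the largest rise to the largest fall, with c-kitCre left of wild-type for each gene and a line at the mean of 3 cultures. The groups are separate in all 14, from Itga8 (means 213 and 3.32) to Itgb7 (means 148 and 4769). The 14 were picked by a test on these same values, and 53.2% of all genes tested had separate groups.

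Among the signalling adaptors, Ptk2, which encodes focal adhesion kinase (FAK), was lower. Ptk2 (ENSMUSG00000022607, chromosome 15, 73205102 to 73423280, minus strand) stood at 3676, 3021 and 3163 scaled reads in cultures labelled c-kitCre and at 8687, 8373 and 8148 in those labelled wild-type. The groups were separate, and Ptk2 fell by 1.36 ± 0.12 on the log2 scale (SE; limma, adjusted p = 0.000542). Pxn, the gene of paxillin, a scaffold that FAK phosphorylates, stood at 2696, 3170 and 2296 in the cultures labelled c-kitCre and at 2710, 2083 and 2104 in those labelled wild-type, with a 95% interval of the log2 difference from -0.18 to 0.66. The Ptk2 to Pxn ratio per kb was 0.95, 0.66 and 0.96 in the cultures labelled c-kitCre, against 2.23, 2.79 and 2.69 in those labelled wild-type. Bcar1, which encodes the docking protein p130Cas, averaged 5059 ± 930 and 3716 ± 1360.5 scaled reads in cultures labelled c-kitCre and wild-type (SD, n = 3; limma, adjusted p = 0.278).

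In the complex of ILK, PINCH and parvin, only Lims1 passed the test. Lims1, the gene of PINCH1, measured 5632, 6445 and 4947 scaled reads in cultures labelled c-kitCre and 3379, 3834 and 3861 in those labelled wild-type (ENSMUSG00000019920, chromosome 10, 58323466 to 58424691, plus strand). The groups were separate and the log2 difference was 0.61 ± 0.14 (SE; limma, adjusted p = 0.0168), but median centring over all genes ended the call (0.202), as did leaving out c-kitCre culture 1 or wild-type culture 2 or 3 (0.0535 to 0.0580). Ilk, the pseudokinase at the core of the complex, measured 132, 135 and 129 in the cultures labelled c-kitCre and 92.9, 82.9 and 112 in those labelled wild-type (adjusted p = 0.155). The Ilk level is uncertain, because 76.75% of its exon bases overlap Taf10 on the opposite strand and the use of strand in counting is not stated. The parvin gene Parva averaged 3305 ± 404 and 3431 ± 659 scaled reads, and Parvb 866 ± 79.9 and 972 ± 267, in the cultures labelled c-kitCre and wild-type (SD, n = 3; adjusted p = 0.879 and 0.638, limma).

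The tensin genes Tns1 and Tns3, whose products bind beta tails and actin in elongated adhesions, were lower. Tns1 (ENSMUSG00000055322, chromosome 1, 73910231 to 74124449, minus strand) stood at 977, 965 and 1225 scaled reads in cultures labelled c-kitCre and at 2849, 2458 and 2481 in those labelled wild-type (log2 difference -1.30 ± 0.14, SE; limma, adjusted p = 0.00105). Tns3 (ENSMUSG00000020422, chromosome 11, 8431652 to 8664535, minus strand) stood at 4732, 3354 and 4040 in the cultures labelled c-kitCre and at 5880, 6707 and 7082 in those labelled wild-type (log2 difference -0.71 ± 0.16, SE; limma, adjusted p = 0.0179). Both genes had separate groups. Tns4, a tensin gene outside the member list, overlapped between groups and did not pass, at 16.8 ± 7.94 and 26.5 ± 1.77 scaled reads in cultures labelled c-kitCre and wild-type (SD, n = 3; limma, adjusted p = 0.2). The Tns3 call was lost without wild-type culture 2 or 3 or c-kitCre culture 3 (adjusted p from 0.0616 to 0.0741), with scaling to the summed raw values (0.0686) and with centring over genes averaging 50 or more scaled reads (0.0546).

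The abundant actin linkers did not pass. Flna, a filamin that crosslinks actin and binds beta tails, averaged 68455 ± 8583 and 71804 ± 1148 scaled reads in cultures labelled c-kitCre and wild-type (SD, n = 3), with a 95% interval of the log2 difference from -0.67 to 0.52. Vcl, the gene of vinculin, stood at 6870, 8383 and 6383 in the cultures labelled c-kitCre and at 6798, 5418 and 5392 in those labelled wild-type (adjusted p = 0.215, limma; 25.5% of its exon bases overlap Ap3m1 on the opposite strand). Actn4, a non-muscle alpha-actinin, averaged 5671 ± 809 and 5410 ± 566 in the cultures labelled c-kitCre and wild-type (adjusted p = 0.78). Actn1, its paralogue, averaged 4931 ± 678 and 7910 ± 2491 in the cultures labelled c-kitCre and wild-type (adjusted p = 0.124).

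Fn1, the gene of fibronectin, the ligand of alpha5beta1 and of several alphav and alpha8 receptors, was the highest member per kb in the cultures labelled c-kitCre. Fn1 (ENSMUSG00000026193, chromosome 1, 71585520 to 71653200, minus strand) stood at 153561, 156910 and 127141 scaled reads in cultures labelled c-kitCre and at 47579, 58926 and 69567 in those labelled wild-type. The groups were separate, and the log2 difference was 1.32 ± 0.30 (SE; limma, adjusted p = 0.0167). The call was lost in 4 of the 6 fits that left out a culture, those without c-kitCre culture 1 or 2 or wild-type culture 2 or 3 (adjusted p from 0.0506 to 0.0924).

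Wild-type culture 1 stood at least 2-fold from both other wild-type cultures in 7 members, or 17.9% of them, against 9.09% of all genes tested. It was above them in Itga2, Itga6, Itgb3 and Lims2 and below them in Bcar1, Zyx and Flnc. Itga6, the laminin receptor chain shared by alpha6beta1 and alpha6beta4, stood at 6089, 5597 and 4738 scaled reads in cultures labelled c-kitCre and at 7045, 1196 and 1174 in those labelled wild-type. Zyx, the gene of zyxin, a LIM protein that marks tension-bearing adhesions, stood at 2468, 4579 and 4114 in the cultures labelled c-kitCre and at 1732, 8081 and 7145 in those labelled wild-type. Flnc, the muscle filamin, stood at 10913, 15353 and 11189 in the cultures labelled c-kitCre and at 9791, 39089 and 39304 in those labelled wild-type. In 6 of these 7 genes, all except Bcar1, culture 1 deviated from wild-type cultures 2 and 3 in the direction of the cultures labelled c-kitCre, as it did in 71.4% of the 2196 genes of all those tested in which it stood apart. Lims2, the gene of PINCH2, stood at 63.4, 101 and 30.3 in the cultures labelled c-kitCre and at 46.9, 11.6 and 15.0 in those labelled wild-type. With all cultures and the settings used throughout, the adjusted p of these 7 genes ran from 0.0761 for Itgb3 to 0.67 for Zyx (limma), and Itgb3 passed under some other settings, as given above.

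Without wild-type culture 1, 11 members were higher and 11 lower, against a background of 37.5% of all genes called (17.3% higher and 20.2% lower). All 14 members called with every culture remained among them. The 8 added were Itga2, Itga6, Itgav, Itgb3 and Lims2, higher in the cultures labelled c-kitCre, and Zyx, Flnc and Actn1, lower. Itga6 then had a log2 difference of 2.20 (adjusted p = 0.000824) and Flnc one of -1.67 (adjusted p = 0.00431; limma). In the cultures labelled c-kitCre, single cultures stood apart in Itga8 (culture 2, above) and Lims2 (culture 3, below), where culture 2 stood apart in 11.6% of all genes and culture 3 in 1.27%. No member stood apart in c-kitCre culture 1 or in wild-type culture 2 or 3, where 2.38%, 0.369% and 0.48% of all genes did.

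**Figure D4:**
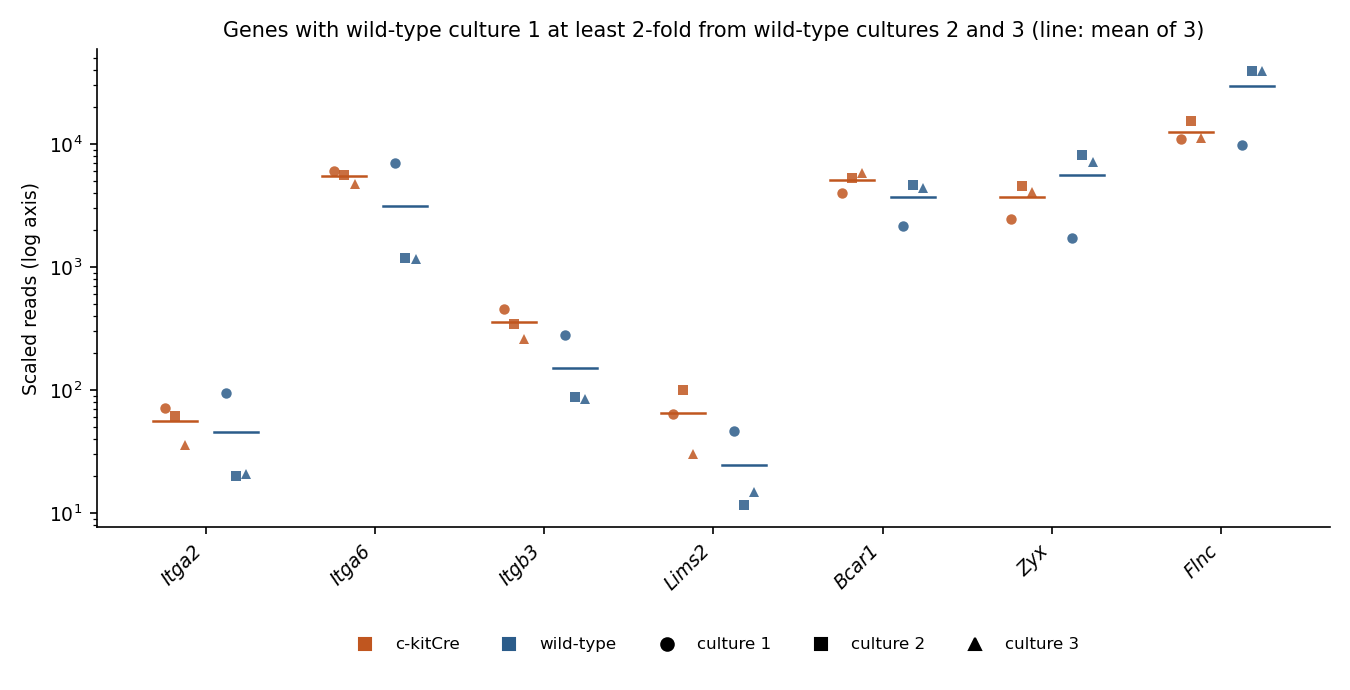
Scaled reads per culture on a log axis for the 7 members in which wild-type culture 1 lay at least 2-fold from wild-type cultures 2 and 3, with c-kitCre left of wild-type and a line at the mean of 3. In Itga6 wild-type culture 1 (7045) lies above all cultures labelled c-kitCre, while wild-type cultures 2 and 3 (1196 and 1174) lie below them.

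The authors' deposited table of their own comparison lists 4528 genes, 13.2% of the full table, and 14 members, 35.9% of them. These shares are not alike. The full table includes the 10023 genes left out of the fit here, while all 39 members were tested. No listed fold is smaller than 2.50 in size. The table gives 8 members as higher in the cultures labelled c-kitCre and 6 as higher in those labelled wild-type. It includes Itga6, Itgb3 and Lims2, with folds of 2.54, 2.70 and 2.87 in the authors' deposited table toward the cultures labelled c-kitCre, which did not pass limma here. It leaves out Lims1, Tns1 and Tns3, which passed here with folds of 1.53, 2.47 and 1.63 in size, each under the smallest listed.

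Neighbouring genes of the pathway went both ways. Of 49 matrix and cell surface ligands of integrins tested, 18 were higher, 4 lower and 27 did not pass, with a median log2 difference of 0.81. That is 44.9% called, where all genes tested had 35.5% called (16.2% higher and 19.3% lower) and a median of 0.04. Lama4, a laminin chain bound by alpha6beta1, averaged 20288 ± 1704 scaled reads in cultures labelled c-kitCre and 8.00 ± 4.47 in those labelled wild-type (SD, n = 3; limma, adjusted p = 4.8e-05). Col1a2, a collagen I chain gene, averaged 78574 ± 16325 and 3318 ± 343, Adam12, a surface protease with a disintegrin domain, 523 ± 196 and 12.2 ± 1.00, and Postn, the alphav ligand periostin, 216 ± 130 and 2.34 ± 0.87. With centring over genes averaging 50 or more scaled reads, 28 ligands were higher, as were 5488 of all 24151 genes tested. Col1a1, Col1a2, Col3a1 and Postn, all among the higher ligands, are also in the fibroblast marker list. That list was higher in the cultures labelled c-kitCre as given above, and the part of cell type in these differences was not tested.

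Of 42 adhesion kinases, phosphatases and GTPase regulators, 7 were higher and 14 lower, and 21 did not pass (median log2 difference -0.29), or 50% called against 35.5% of all genes. Pak1, a kinase activated by Rac, averaged 1268 ± 147 scaled reads in cultures labelled c-kitCre and 406 ± 11.8 in those labelled wild-type, and Arhgef6, an exchange factor that binds parvin, 97.1 ± 14.1 and 9.68 ± 2.01. The phosphatase genes Ptpn11 and Ptpn1 were lower, at 3116 ± 487 and 8107 ± 339 for Ptpn11 and at 544 ± 79.8 and 1505 ± 165 for Ptpn1 in the cultures labelled c-kitCre and wild-type (SD, n = 3; limma, adjusted p from 0.000379 to 0.00106 for these 4 genes). Only 4 genes of this list were higher with median centring over all genes, or without c-kitCre culture 1, wild-type culture 2 or wild-type culture 3. Of all 24151 genes tested, 2821 were higher with that centring, and 3394, 2496 and 2551 without these cultures in turn. The higher count of the list was 11 with centring over genes averaging 50 or more scaled reads, where 5488 of all genes were higher. The lower count was 9 without wild-type culture 2, where 3189 of all genes were lower.

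Of 50 other adhesion adaptors and actin linkers, 12 were higher and 14 lower, with a median log2 difference of -0.09, or 52% called against 35.5% of all genes. Tgfb1i1, the paxillin relative Hic-5, averaged 917 ± 33.7 scaled reads in cultures labelled c-kitCre and 326 ± 10.6 in those labelled wild-type, and Pdlim1, a PDZ and LIM protein of stress fibres, 973 ± 208 and 127 ± 32.4. Sorbs3, the gene of the vinculin-binding vinexin, averaged 146 ± 0.90 and 1257 ± 242, and Ablim1, an actin-binding LIM protein, 8.15 ± 3.65 and 2042 ± 1320 (SD, n = 3; limma, adjusted p from 0.000149 to 0.000658 for these 4 genes). The higher count was 7 with median centring over all genes, where 2821 of all 24151 genes tested were higher. The lower count was 9 without wild-type culture 2 or 3, where 3189 and 3419 of all genes were lower.

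Of 30 integrin inhibitors, trafficking proteins and partner receptors, 8 were higher and 9 lower, with a median log2 difference of -0.12, or 56.7% called against 35.5% of all genes. Sdc3, a syndecan, averaged 5658 ± 1591 scaled reads in cultures labelled c-kitCre and 468 ± 77.0 in those labelled wild-type. Numbl, a Numb-like endocytic adaptor, averaged 1616 ± 117 and 496 ± 11.2, and Itgbl1, a secreted protein with integrin beta-like repeats, 166 ± 35.1 and 15.2 ± 2.21. Krit1, which binds the integrin inhibitor ICAP1, averaged 756 ± 137 and 2403 ± 64.5 (SD, n = 3; limma, adjusted p from 0.000195 to 0.000661 for these 4 genes). The higher count was 5 without wild-type culture 2 or 3, and also when any 1 of the cultures labelled c-kitCre was left out. Of all 24151 genes tested, 2496 and 2551 were higher without wild-type culture 2 or 3. Without c-kitCre cultures 1, 2 and 3 in turn, 3394, 3922 and 3091 were higher. The lower count was 5 without c-kitCre culture 3, where 3561 of all genes were lower.

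The 9 integrin chains outside the member list, mostly of leukocytes and platelets, gave no call among 7 tested (limma, 0 at an unadjusted p under 0.05). Of all genes tested, 35.5% were called. With median centring over all genes 1 of them was lower, as were 8605 of all 24151 genes tested. Without c-kitCre culture 2 there was 1 higher, as were 3922 of all genes. Itga2b had the highest mean among them, at 255 ± 84.1 scaled reads in cultures labelled c-kitCre and 215 ± 2.89 in those labelled wild-type (SD, n = 3), and 4 of the 9 had means under 10 in both groups.

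Markers of other cell types stood as follows, where 35.5% of all genes tested were called (16.2% higher and 19.3% lower). Smooth muscle and pericyte markers had 7 of 14 higher and 1 lower (57.1% called). Their summed levels were 12300.5 to 14858 scaled reads per culture labelled c-kitCre and 3566 to 5177 per culture labelled wild-type. Epithelial and mesothelial markers had 1 of 10 higher and 3 lower (40% called). Their sums were 158 to 225 in the cultures labelled c-kitCre and 6505 to 8556 in those labelled wild-type. Msln, a mesothelial surface protein gene, gave most of the wild-type sums (43.5 ± 22.8 and 6950 ± 832 in the cultures labelled c-kitCre and wild-type). The keratin genes Krt8 and Krt14 were also lower, at 4.6 ± 1.32 and 173 ± 202 scaled reads in cultures labelled c-kitCre and wild-type for Krt8 and at 1.89 ± 1.38 and 53.7 ± 28.3 in the cultures labelled c-kitCre and wild-type for Krt14 (SD, n = 3; limma, adjusted p = 0.00684 and 0.00259), and the mesothelial factor gene Wt1 was higher, at 75.6 ± 4.85 and 8.40 ± 4.61 in the cultures labelled c-kitCre and wild-type (0.00182). Epcam averaged 1.77 and 0.29 scaled reads and Cdh1 7.46 and 9.98 in the cultures labelled c-kitCre and wild-type. Epcam was not tested, and Cdh1 was not called. Endothelial markers had 3 of 13 higher and 0 lower (23.1% called). Leukocyte and platelet markers had 1 of 12 higher and 2 lower (25%), and cardiomyocyte markers 2 of 11 higher and 1 lower (27.3%). Endothelial sums were 3741 to 4667 in the cultures labelled c-kitCre and 3198 to 4206 in those labelled wild-type. In the same order, leukocyte and platelet sums were 863 to 951 and 1218 to 2209, and cardiomyocyte sums 739 to 945 and 2254 to 4143. Most of the endothelial sums came from Flt1 (means 2974 and 2801, same order) and Vwf (874 and 668). Of the 14 endothelial markers, 8 had means under 10 scaled reads in both groups. The part of any of these marker groups in the integrin differences was not tested.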

How the data were processed

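RNA was rRNA-depleted, prepared with a TruSeq kit and sequenced as 100 bp paired ends, per the labels' protocols, and the authors worked on mm10 with DESeq, per the submitters' processing notes. The sources used here do not give the aligner, the counting, its use of strand or how 2 libraries per culture were merged. The deposited table holds a raw read signal per gene and culture, which is not whole, and log2 values that the authors normalized and centred per gene. The deposited fold changes of the authors' own comparison are signed and positive where wild-type is higher. Over 8369 genes above 200 raw reads, the log2 values followed the raw signal times 1 factor per culture (0.825 to 1.52) to within 2.04e-06, and low values were raised to about 4.41 scaled reads. With that floor, 79.6% of all genes were rebuilt within 0.001 and the largest deviation was 2.01 on the log2 scale, so the deposited log2 values were used. The constant per gene was added back to the deposited log2 values, and limma 3.58.1 in R 4.3.3 (moderated test with trend, two-sided, Benjamini-Hochberg over 24151 genes) compared 3 cultures with 3. The other 10023 genes had a mean under 1 scaled read or lay at the floor throughout. A fold therefore understates the change of low genes. Depth is known only as summed raw signal, and no counting interval is given. Exon lengths and coordinates are from GENCODE M21 on mm10, which matched 32874 gene IDs. Culture values are given for members that passed with a log2 difference of at least 1 and for Itgb1, Ptk2, Pxn, Vcl, Tln1, Ilk and Fn1. Up to 4 genes of smallest p in each neighbouring list are given as group means. Values of other members, such as those in which 1 culture stood apart, other named marker genes, Tns4 and the ratio pairs were chosen after their values were seen. The members and lists were chosen with earlier results of these data known. Alternatives changed the filter, pseudocount (0.1, 1 or 5), scaling, centring, variance model, block or cultures included.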

Additional observations from a re-analysis of the deposited data

How the results depend on the processing

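Of the 14 members called, 10 were called in each of the 18 alternatives, and Itga10, Lims1, Tns3 and Fn1 were lost in some; no called member reversed. Of the 25 members not called, 14 were called in at least 1 alternative, among them Itgb3 in 7, Itgav in 4, Actn1 in 3 and Itga5 and Vcl in 2. Higher members numbered 10 with centring over genes averaging 50 or more scaled reads, and 4 to 11 when 1 culture was left out (11 without wild-type culture 1), with 6 to 11 lower. Over all genes, 5488 were higher with centring over genes averaging 50 or more, and 8605 were lower with median centring over the genes tested. Leaving out 1 culture gave 2496 to 4175 higher and 3189 to 4886 lower of all genes. Whether the replicate numbers pair the cultures cannot be told from 3 cultures per group. Deviations of same-numbered cultures from their group means correlated at 0.124, -0.0092 and 0.190 over 13456 genes. Those of differently numbered cultures correlated at -0.191 to 0.161. In both groups, cultures 1 and 3 correlated best with their own number, and culture 2 did not. A fit with the replicate number as a block gave 3704 higher and 4419 lower genes, and 6 higher and 9 lower members, with Itgb3 and Actn1 added and Fn1 lost (adjusted p = 0.0505, limma). The log2 differences that changed sign belonged to members not called with the settings used throughout. With median centring over the genes tested they were -0.27 for Itga4, -0.013 for Itga7, -0.29 for Tln1, -0.29 for Fermt1 (near or under the floor, and there called lower, adjusted p = 0.0390), -0.11 for Pxn, -0.058 for Vcl and -0.29 for Actn4. With quantile normalization they were -0.00028 for Itga1, 0.088 for Parva and 0.076 for Parvb, and with centring over genes averaging 50 or more they were 0.17 for Parva, 0.076 for Parvb and 0.14 for Flna. Leaving out 1 culture gave -1.08 to 0.032 for Zyx, -0.21 to 0.060 for Parva, -0.27 to 0.077 for Parvb and -0.027 to 0.19 for Actn4. Each centring moved the log2 difference of every gene by the same amount. The cause of the sign changes under the other settings was not tested. Itga8, Itga9 and other genes near 4.41 scaled reads in 1 group have differences limited by that floor.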
